A study of Mus musculus with 4 samples.

Results

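The genes described here are 8 transcripts of tissue macrophages and of the signals that position immune cells in mouse gastrocnemius, a calf muscle. Csf1r, Tyrobp, Fcgr3, Mrc1, Adgre1 and Lcp1 encode proteins of the macrophage itself, and Cxcl12 and Ccl8 encode chemokines. Their names were fixed as a list, chosen with earlier results of these data known. Every probe set that the platform annotation gives to a listed gene alone was taken. This gave 13 of the 12422 probe sets for 8 of 8251 genes. RNA was pooled from 10 mice per group and hybridized to 1 Affymetrix MG-U74Av2 oligonucleotide array per group, so there were 4 arrays. The groups were intact mice, mice whose adrenal glands had been removed 1 week earlier, and adrenalectomized mice that had received 0.1 mg of cortisol into the peritoneum either 3 h or 24 h before dissection. Neither strain, sex nor age of the mice was given, no injection of vehicle was described, and the interval since surgery was given for the untreated adrenalectomized mice alone.

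With 1 pool on 1 array per group no test could be made, and the values below compare single pools. The arrays also ran in fluidics modules 1 to 4, 1 array in each, so that a group, its pool and its module cannot be told apart. Signals are linear probe set intensities scaled to a common trimmed mean of 500, and values below 100 were treated as a floor. Between 63.0% and 64.4% of the probe sets reached that floor on an array. The only measure of error was the spread between 2 probe sets of the same gene, both at or above the floor on both arrays. It holds no variation between mice. Its SD on the log2 scale was 0.24 for the change with adrenalectomy, and, relative to the adrenalectomized array, 0.28 at 3 h and 0.32 at 24 h. The glucocorticoid-induced genes Fkbp5, Per1, Mt1, Mt2, Nfkbia and Ddit4 were 3.22-fold to 12.6-fold higher at 3 h than after adrenalectomy alone. Of 11 genes of muscle fibres, 10 reached the floor on every array, with a median signal of 18890 to 20949 over the 11.

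Resident macrophages lie between the fibres of skeletal muscle, clear debris and take part in repair. They depend on colony stimulating factor 1, which acts through the receptor encoded by Csf1r, and many of their surface receptors signal through the adaptor encoded by Tyrobp. Chemokines are small secreted proteins that direct the migration of leukocytes, and glucocorticoids are known to restrain many inflammatory ones. In a whole muscle, a lower signal for such a gene may come from fewer cells of the type or from less RNA per cell, and these cannot be told apart here. Of the defining macrophage markers outside the 8 genes, Cd68 read between 253 and 363, the complement genes C1qa, C1qb and C1qc between 839 and 1394, and Lyz2 between 839 and 1251. Itgam and Aif1 stayed below the floor on all 4 arrays. Some defining macrophage markers were thus above the floor on every array and others on none.

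After adrenalectomy Tyrobp was higher than in intact muscle. At 3 h after cortisol Lcp1, Tyrobp and Cxcl12 were lower than in the adrenalectomized pool and Fcgr3 was higher, and by 24 h Ccl8 and Fcgr3 were higher and Mrc1 was lower. The genes thus did not move as one group. Of the 8, 5 reached the floor on all 4 arrays, and Fcgr3, Adgre1 and Ccl8 did not. A gene was counted when it differed by at least 1.5-fold between 2 arrays, and 6 of the 8 did so in at least 1 of the 3 main comparisons, against 18.3% of 6416 genes. Because the list was chosen with earlier results of these data known, this contrast cannot show an excess over other genes.

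**Figure D1:**
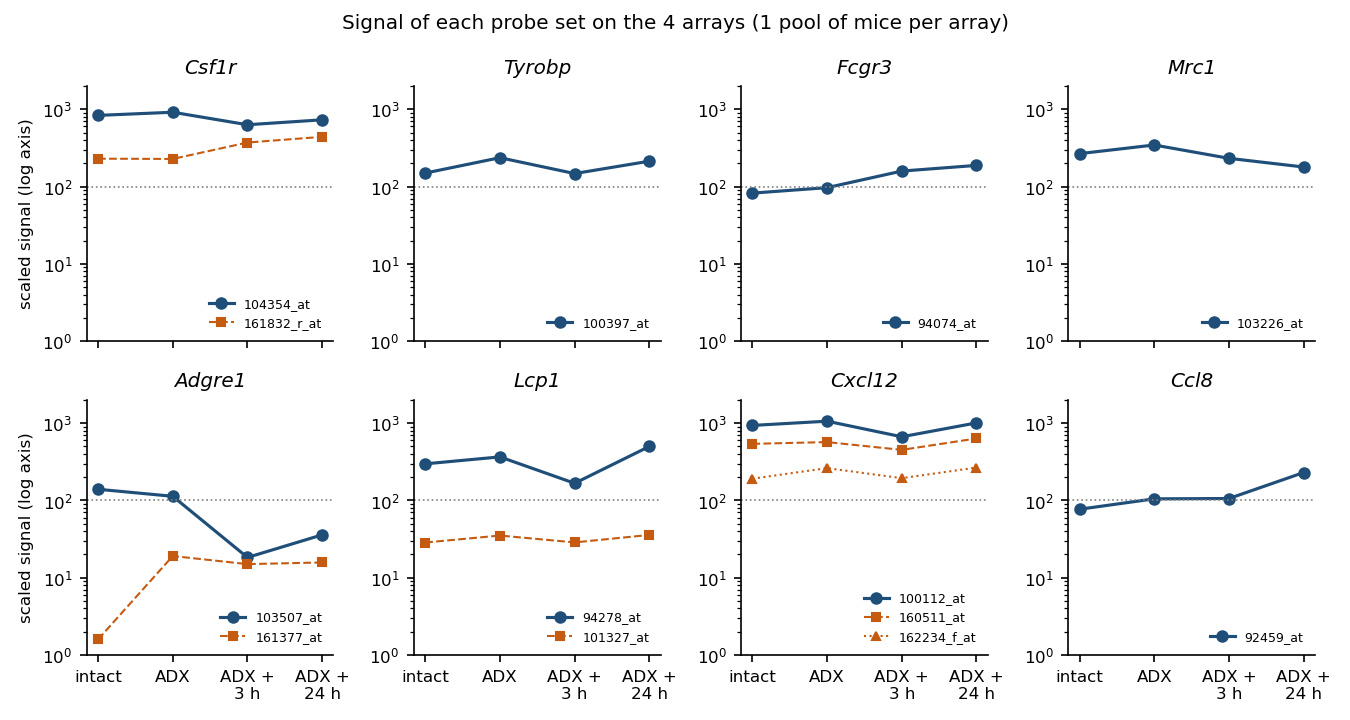
Scaled signal (log axis) of the 13 probe sets on the 4 arrays, from intact to adrenalectomized (ADX) to 3 h and 24 h after cortisol; blue circles mark the probe set that represents the gene, orange symbols its other sets, and the dotted line the floor of 100. Lcp1 dips to 167 at 3 h and reaches 500.2 at 24 h, Ccl8 stands apart only at 24 h with 229.9, and the Csf1r sets run in opposite directions after cortisol.

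Csf1r, the receptor on which macrophage survival depends, had signals of 833 in intact muscle, 915 after adrenalectomy, 630.4 at 3 h and 730.0 at 24 h. Its lowest value was thus at 3 h, 1.45-fold below the adrenalectomized array, short of the 1.5-fold limit. The second probe set for Csf1r went the other way. It read 229.4, 228, 371 and 439.8 in the same order, with log2 ratios of 0.71 at 3 h and 0.95 at 24 h against the adrenalectomized array. Its name carries the suffix r, which the manufacturer used for sets designed with relaxed rules. When both sets were averaged the log2 ratio of Csf1r to the adrenalectomized array changed from -0.54 to 0.08 at 3 h. At 24 h it changed from -0.33 to 0.31. Against intact muscle it changed from -0.40 to 0.15 at 3 h and from -0.19 to 0.37 at 24 h. Its direction at both times thus depended on the probe set.

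Tyrobp, which encodes the adaptor protein DAP12 of activating myeloid receptors, read 149 in intact muscle, 236 after adrenalectomy, 147 at 3 h and 213 at 24 h. The intact and 3 h values were close to each other and the other two were higher. Adrenalectomized muscle was 1.58-fold above intact muscle, and the 3 h array was 1.60-fold below the adrenalectomized one. At 24 h the difference from the adrenalectomized array was 1.11-fold, within the error of a single ratio. With a floor of 200 the log2 ratios of 0.66 and -0.68 became 0.24 and -0.24, because the intact and 3 h signals lay under that floor.

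Fcgr3 encodes a low-affinity receptor for immunoglobulin G on macrophages, granulocytes and natural killer cells. Its signals were 82.2 in intact muscle, 96.8 after adrenalectomy, 159 at 3 h and 188 at 24 h. Both arrays taken after cortisol were above both arrays without it. Since the adrenalectomized signal was below the floor, the difference was at least 1.59-fold at 3 h and at least 1.88-fold at 24 h. At 3 h its log2 ratio of 0.66 became 0.46 with scaling to the probe sets of ribosomal proteins.

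Mrc1, the mannose receptor gene of resident and alternatively activated macrophages, read 267 in intact muscle, 345 after adrenalectomy, 232 at 3 h and 179 at 24 h. The adrenalectomized array was the highest and the 24 h array the lowest. The 3 h array was 1.49-fold and the 24 h array 1.93-fold below the adrenalectomized one, and the 24 h log2 ratio of -0.95 lay between -1.29 and -0.79 under the other settings tried. Of 24 other myeloid markers with a ratio in that comparison 0 were lower by the limit, 12 ratios being positive and 12 negative. Among them Cd68 was at -0.01, Folr2 at -0.08 and Lyve1 at -0.28. On the same 24 h array 5 of 10 fibroblast and matrix markers, Col1a1, Col1a2, Col3a1, Mfap5 and Postn, were at least 1.5-fold below the adrenalectomized array, against 4.51% of all genes. The summed signal of the 10 fibroblast and matrix markers was 31759 against 43554 after adrenalectomy. The part of these cells in the lower Mrc1 signal was not tested.

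Adgre1 encodes F4/80, the classical surface marker of mouse macrophages. It read 139.6 and 113 in intact and adrenalectomized muscle, and 18.3 and 35.9 at 3 h and 24 h, both below the floor. The differences from the adrenalectomized array were therefore at least 1.13-fold, a bound that depends on the floor. With a floor of 50 the log2 ratio reached -1.18 at both times. A second Adgre1 set stayed below the floor on all 4 arrays.

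Lcp1 encodes L-plastin, a protein that bundles actin filaments in leukocytes. Its representative probe set read 298 in intact muscle, 366 after adrenalectomy, 167 at 3 h and 500.2 at 24 h. The 3 h array was the lowest and the 24 h array the highest of the 4. The 3 h signal was 2.20-fold below the adrenalectomized one, a log2 ratio of -1.13, and 0.681% of the 6168 genes compared had a lower ratio. From 3 h to 24 h it was 3.00-fold higher, and 99.9% of 6229 genes had a lower ratio. The other Lcp1 set read between 28.6 and 35.8 and was below the floor throughout, so an average of both sets reduced the 3 h log2 ratio to -0.57.

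The promoters of Lcp1 and Mrc1 are shown because these genes had the lowest ratios at 3 h and at 24 h among the genes above the floor on both arrays; Adgre1, known only by a bound, may have been lower. RefSeq windows of 300 bases, 250 before to 50 after a start site on build GRCm38.p6, were matched for 5 of the 8 genes, namely Lcp1, Mrc1, Fcgr3, Ccl8 and Cxcl12, with 7 windows in all. Each window was searched on both strands for GAGGAA, a core of sites bound by the macrophage factor PU.1, and for TGTTCT, the half-site of the glucocorticoid receptor. These motifs do not overlap in letters. Capitals mark the matches, which read TTCCTC or AGAACA where the motif lies on the opposite strand. The 250 bases before the start site are printed 5′ to 3′, and all 4 genes printed here and below lie on the plus strand.
Lcp1, chr14:75136175-75136424: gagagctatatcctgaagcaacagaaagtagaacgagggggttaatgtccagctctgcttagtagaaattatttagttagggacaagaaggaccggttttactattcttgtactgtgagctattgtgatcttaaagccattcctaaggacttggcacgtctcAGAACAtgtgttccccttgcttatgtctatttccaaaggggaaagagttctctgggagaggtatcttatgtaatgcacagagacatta
Mrc1, chr2:14229164-14229413: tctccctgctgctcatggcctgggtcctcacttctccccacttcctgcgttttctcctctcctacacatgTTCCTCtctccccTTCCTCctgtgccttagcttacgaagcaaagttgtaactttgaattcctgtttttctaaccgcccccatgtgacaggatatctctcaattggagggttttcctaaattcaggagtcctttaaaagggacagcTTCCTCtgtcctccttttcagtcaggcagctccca
The Lcp1 window held 1 glucocorticoid receptor half-site and no PU.1 core, and a second Lcp1 start site upstream held neither. Mrc1 held 3 PU.1 cores and no half-site. Over all 32851 windows of the same length, 28.3% held the PU.1 core and 19.0% the half-site, against 4 and 1 of the 7 windows of these genes. Both Fcgr3 windows, which overlap, held 1 PU.1 core each. Which start site was in use in these muscles was not measured.

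Cxcl12, the stromal chemokine that retains leukocytes and progenitors in tissues, is made by fibroblasts and endothelium and not mainly by macrophages. Its brightest probe set read 936 in intact muscle, 1062 after adrenalectomy, 667 at 3 h and 1009 at 24 h. The 3 h array was the lowest, 1.59-fold below the adrenalectomized array, and the 24 h array was 1.51-fold above the 3 h array. A second set read 540.5, 569, 451 and 634, and another 191, 262, 194 and 267. The 3 sets were all lower at 3 h than after adrenalectomy, by log2 ratios of -0.67, -0.34 and -0.43, and averaged over the sets the ratio was -0.48, under the 1.5-fold limit. The dimmest set carries the suffix f, which marks probes shared within a gene family. Of the 10 fibroblast and matrix markers 0 passed 1.5-fold at 3 h, with a median of -0.16. Of these ratios 9 were negative and 1 positive, and the lowest was that of Pdgfra at -0.58. Of 9 endothelial markers 2 were higher and 2 lower by the limit, with 5.07% of all genes higher and 4.75% lower. The part of these cells in the lower Cxcl12 signal was not tested.

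Ccl8 encodes a CC chemokine, also called monocyte chemotactic protein 2, that attracts monocytes and other leukocytes. Its signals were 77.0 in intact muscle, 105 after adrenalectomy, 106 at 3 h and 229.9 at 24 h. The first 3 values lay near or below the floor and the 24 h value stood apart. The 24 h array was 2.19-fold above the adrenalectomized array and 2.17-fold above the 3 h array, and at least 2.30-fold above the intact array. Only 1 probe set measured this gene, and with a floor of 200 the 24 h log2 ratio of 1.13 became 0.20, since the other arrays were then at the floor.

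The promoters of both chemokine genes are shown because they are the secreted members and moved at different times.
Cxcl12, chr6:117168285-117168534: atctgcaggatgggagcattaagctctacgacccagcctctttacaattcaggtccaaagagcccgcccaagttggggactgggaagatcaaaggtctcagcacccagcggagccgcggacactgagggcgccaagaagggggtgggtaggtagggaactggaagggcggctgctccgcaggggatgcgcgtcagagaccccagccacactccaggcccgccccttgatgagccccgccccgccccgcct
Ccl8, chr11:82114935-82115184: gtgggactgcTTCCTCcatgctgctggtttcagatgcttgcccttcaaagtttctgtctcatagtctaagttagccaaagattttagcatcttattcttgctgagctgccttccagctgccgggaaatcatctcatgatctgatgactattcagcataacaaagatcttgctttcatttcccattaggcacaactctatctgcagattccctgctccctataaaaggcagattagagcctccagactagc
Ccl8 held 1 PU.1 core and no half-site, and Cxcl12 held neither. Of the Cxcl12 window 64.7% of the bases were G or C, against 44.7% for Ccl8. No factor binding was measured here, and a match or its absence describes only these letters.

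Against the background of all genes, 1 of the 7 genes that could be compared was at least 1.5-fold higher after adrenalectomy than in intact muscle, with 2.67% of 6112 genes higher and 2.24% lower by that limit, and 0 of the 7 were lower. Fcgr3, below the floor on both arrays, had no ratio. The median log2 ratio of the 7 was 0.18, against 0.01 for all genes, and 6 of the 7 ratios were positive, against 52.0% of all genes, the exception being Adgre1 at -0.30. At 3 h against adrenalectomized 1 of the 8 was higher and 3 were lower, with 5.07% of 6168 genes higher and 4.75% lower. The median was -0.56 against -0.02 for all genes, and 6 of the 8 ratios were negative, against 53.2% of all genes. With all probe sets of a gene averaged, which turned Csf1r to 0.08, 5 of the 8 were negative. At 24 h against adrenalectomized 2 of the 8 were higher and 1 was lower, with 5.49% of 6228 genes higher and 4.51% lower, and the median was -0.11 against 0.01. These 3 comparisons share the adrenalectomized array, so a high or low value on it enters each of them. The choice of the 8 genes with earlier results known also limits each contrast with all genes.

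**Figure D2:**
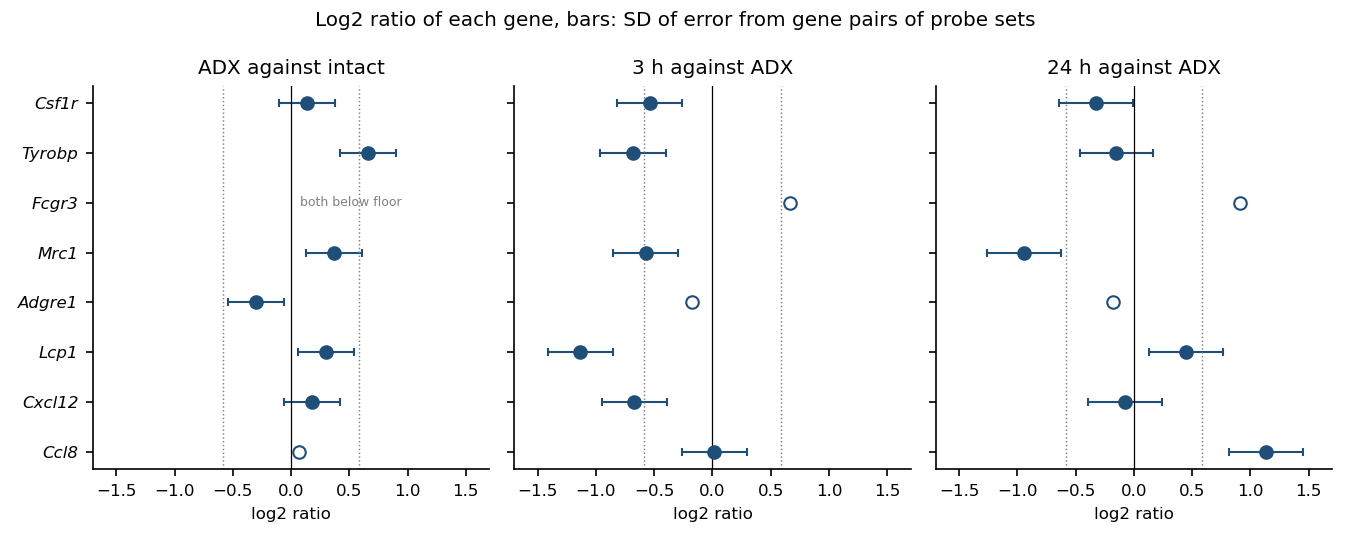
Log2 ratio of each gene in the 3 main comparisons. Bars give the SD of the error of a ratio (0.24, 0.28 and 0.32), estimated from genes with 2 probe sets at or above the floor on both arrays. Dotted lines mark 1.5-fold. Open circles without a bar give the smallest size of the difference, because the dimmer array was below the floor. Tyrobp alone passes the limit after adrenalectomy. At 3 h Lcp1, Tyrobp and Cxcl12 lie beyond it on the low side and Fcgr3 on the high side. At 24 h Mrc1 lies beyond it on the low side and Ccl8 and Fcgr3 on the high side.

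**Figure D3:**
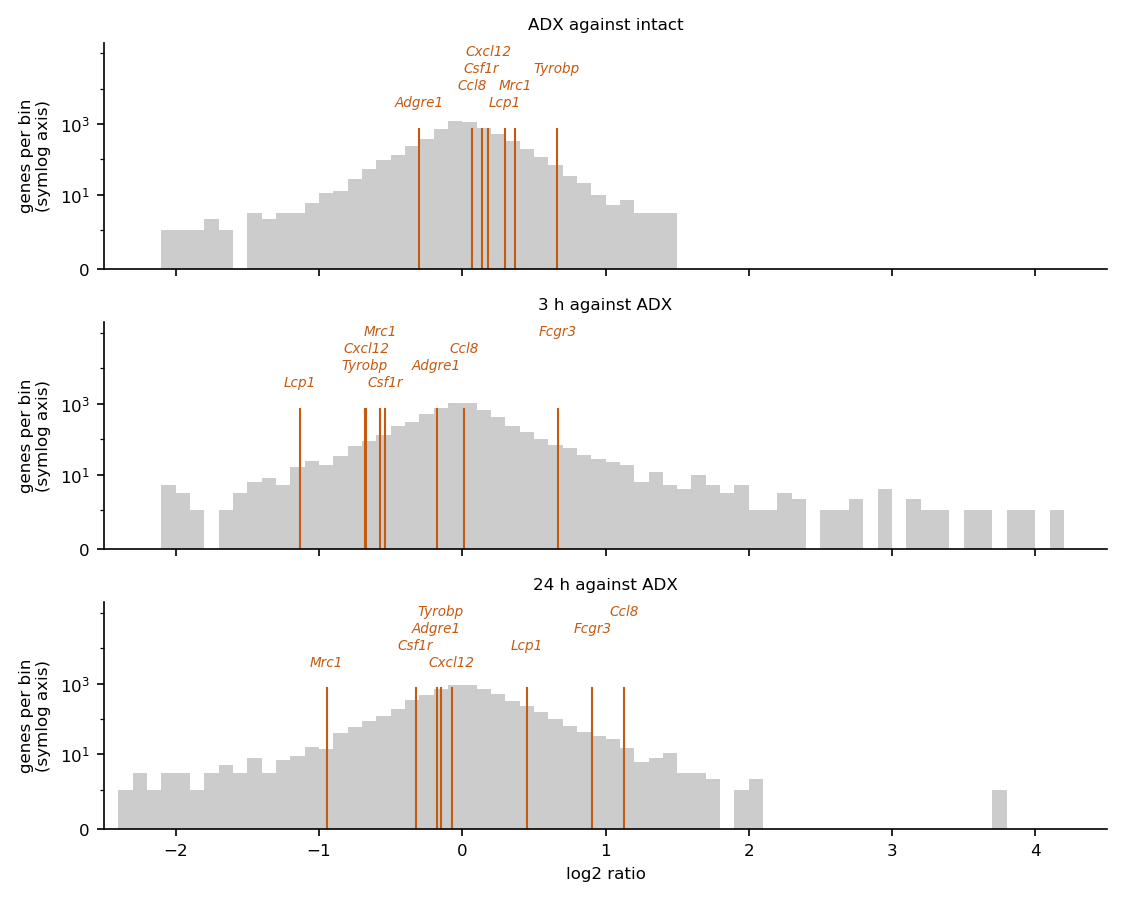
Distribution of the log2 ratios of all genes at or above the floor (grey bars, genes per bin of the log2 ratio, symlog axis) with the ratio of each of the genes described here as an orange line. At 3 h against the adrenalectomized array Lcp1 lies near the low end at -1.13, and at 24 h Ccl8 lies toward the high end at 1.13.

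The other 3 comparisons set the later arrays against each other and against intact muscle. From 3 h to 24 h, Lcp1, Ccl8 and Cxcl12 were at least 1.5-fold higher, 3 of the 7 genes with a ratio, with 5.76% of 6229 genes higher, and 0 were lower, with 5.88% of all genes lower. The median was 0.53 against 0.03, and Mrc1 alone was negative, at -0.37. Cxcl12 was close to the limit, and its log2 ratio of 0.60 became 0.55 with median scaling, 0.50 with scaling to ribosomal proteins and 0.51 with its probe sets averaged, each of which left 2 genes higher. At 3 h against intact muscle Fcgr3 was higher and Lcp1 was lower, each 1 of the 8, with 5.7% of 6162 genes higher and 4.25% lower. Lcp1 was 1.78-fold below intact muscle, and Tyrobp was level with it, at a log2 ratio of -0.02. At 24 h against intact muscle Ccl8, Fcgr3 and Lcp1 were higher, 3 of the 8, with 5.95% of 6219 genes higher. None of the 8 was lower by the limit, with 4.04% of all genes lower, though Mrc1 was 1.49-fold lower. Lcp1 was 1.68-fold above intact muscle at 24 h. The error of a ratio had an SD of 0.31, 0.27 and 0.32 in these comparisons.

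A wider list of 32 myeloid genes was also on the array, and its median log2 ratio at 3 h was -0.03. Of the 24 that could be compared, 1 was at least 1.5-fold higher and 1 lower. Both counts were near the shares of all genes, 5.07% higher and 4.75% lower. The lower gene was Spi1, which encodes PU.1, the transcription factor that sets macrophage identity. Spi1 read 292 in intact muscle, 327 after adrenalectomy, 194 at 3 h and 269 at 24 h, and was 1.68-fold lower at 3 h. Its lowest value was on the same array as the lowest values of Lcp1 and Cxcl12. The higher gene was Lgals3, which encodes galectin-3 of macrophages and of epithelia including epidermis. Lgals3 read 55.4, 118, 374 and 190.2 and was 3.17-fold higher at 3 h. Markers of epidermis and hair moved the same way on that array: 6 of the 9 reached the floor, all 6 at least 2-fold higher, against 115 of 6168 genes. The summed signal of the 9 was 8980 at 3 h against 767 in intact muscle, 698 after adrenalectomy and 2047 at 24 h. Krt5, Krt14 and Krt15 were below the floor on all 4 arrays. The part of epidermal RNA in the Lgals3 signal, and in any of the 8 genes, was not tested.

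At 24 h against adrenalectomized, 3 of the 24 myeloid markers with a ratio were higher by the limit and 0 were lower, with a median of 0.02. The shares of all genes were 5.49% higher and 4.51% lower. Cd52, a small surface glycoprotein gene of lymphocytes and myeloid cells, read 206, 229.9, 209 and 526 and was 2.29-fold higher. Cd53, a tetraspanin gene of leukocytes, read 103, 85.4, 147 and 214 and was at least 2.14-fold higher, and Lgals3 was 1.61-fold higher. The Cd53 log2 ratio became 0.10 with a floor of 200, and with scaling to ribosomal proteins that of Lgals3 became 0.34, both under the limit. Of 10 lymphocyte markers on the platform 4 reached the floor, and on the same array Cd79a, Cd79b and Cd4 were at least 1.5-fold higher than after adrenalectomy. The same 3 passed the limit at 3 h, at log2 ratios of 0.93, at least 0.97 and 0.93. Against intact muscle at 3 h Cd79b alone passed the limit, at 0.73, while Cd79a was at -0.09 and Cd4 at -0.14. Against intact muscle at 24 h Cd79a and Cd79b passed it, at 1.01 and 1.15, and Cd4 at 0.33 did not. The Cd79b ratio to the adrenalectomized array was a bound, and at 24 h it became 0.39 with a floor of 200. The fourth, the B cell gene Ms4a1, read 284, 388, 277 and 359.5, and its log2 ratio at 24 h was -0.11. Cd3d, Cd3e, Cd3g, Cd8a, Cd2 and Cd5 were below the floor on all 4 arrays. Cd79a, a B cell receptor gene, read 262, 129.6, 246 and 528, and the summed signal of the 10 lymphocyte markers was 1061, 825, 1118 and 1732. The part of lymphocytes in the higher signals of Ccl8, Fcgr3 and Lcp1 at 24 h was not tested. After adrenalectomy Cd79a and Cd4 were at least 1.5-fold lower than in intact muscle, a difference that a floor of 200 reduced to log2 ratios of -0.39 and -0.42, while that of Ms4a1 was 0.45. None of the myeloid markers passed the limit in either direction after adrenalectomy, with a median of 0.14 over 22 genes, 15 of them positive. The shares of all genes were 2.67% higher and 2.24% lower, so few were to be counted.

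Genes that act with Csf1r and Tyrobp were represented by 6 genes, of which 4 reached the floor. Csf1, the ligand of Csf1r, read 506 in intact muscle, 575 after adrenalectomy, 446 at 3 h and 503 at 24 h, all differences being below 1.5-fold. Syk, the kinase recruited by Tyrobp and by Fc receptors, read 667, 717, 714 and 801. Sirpa, an inhibitory receptor of macrophages that recognizes CD47, read 165, 271, 61.2 and 168. It was 1.64-fold higher after adrenalectomy than in intact muscle, at least 2.71-fold lower at 3 h and 1.61-fold lower at 24 h. With a floor of 200 these became log2 ratios of 0.44, -0.44 and -0.44, and with all its probe sets averaged those after adrenalectomy and at 24 h were 0.47 and -0.20, all under the limit. Inpp5d, a lipid phosphatase gene that restrains myeloid signalling, read 50.9, 161, 60.4 and 117, and its log2 ratio after adrenalectomy was at least 0.69. Over the 4 genes at or above the floor the medians were 0.43, -0.53 and -0.33 in the main comparisons.

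Among 22 other chemokine ligands 10 reached the floor in the comparison at 3 h, where 1 was higher by the limit and 0 were lower. The shares of all genes were 5.07% higher and 4.75% lower. Ccl1 and Ccl22, chemokines that attract T cells, went opposite ways. Ccl1 read 189 in intact muscle, 104 after adrenalectomy, 195 at 3 h and 275 at 24 h, and was 2.64-fold above the adrenalectomized array at 24 h. Ccl22 read 184, 279.7, 191 and 162 and was 1.72-fold below it. Both log2 ratios were under the limit with a floor of 200, at 0.46 and -0.48. Ccl1 was also the 1 ligand higher at 3 h, at a log2 ratio of 0.91. With all Ccl1 probe sets averaged that ratio became 0.45, and the ratio after adrenalectomy changed from -0.86 to -0.43, both under the limit. The Ccl1 signals given here are from a probe set with the suffix g. The monocyte attractants Ccl7 and Ccl12, close relatives of Ccl8, were below the floor on all 4 arrays, and Ccl2 read 121, 123, 61.3 and 101. Over 12 ligands the median at 24 h was -0.13. By the limit 1 of the 12, Ccl1, was higher and 1, Ccl22, was lower, with 5.49% of all genes higher and 4.51% lower.

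Of 18 chemokine receptors 8 reached the floor in the comparison at 3 h, where 2 were higher by the limit and 2 lower. The shares of all genes were 5.07% higher and 4.75% lower. Ackr3 encodes an atypical receptor that binds Cxcl12 and removes it from the tissue. It read 335 in intact muscle, 371 after adrenalectomy, 1296 at 3 h and 320.1 at 24 h, so the 3 h array stood apart from the other three. The 3.49-fold higher Ackr3 signal and the 1.59-fold lower Cxcl12 signal were found on the same array. Both are RNA signals, and a link between them was not tested. The Ackr3 log2 ratio of 1.80 at 3 h lay between 1.55 and 1.83 under the other settings, while that of Cxcl12 was -0.48, under the limit, with its probe sets averaged. Cxcr4, the signalling receptor for Cxcl12, stayed below the floor on all 4 arrays, as did Ccr8, a receptor for mouse Ccl8. Ccr6, a receptor of lymphocytes and dendritic cells, read 116, 264, 37.4 and 70.4, and was 2.28-fold higher after adrenalectomy than in intact muscle, a log2 ratio of 1.19 that became 0.40 with a floor of 200. Cx3cr1, a receptor gene of monocytes and macrophages, read 404, 397, 283 and 423, and its log2 ratio of -0.48 at 3 h was under the limit. Beside Ackr3, the other receptor higher by the limit at 3 h was Ackr2, at a log2 ratio of at least 0.75. The 2 lower ones were Ccr2 at -0.65 and Ccr6 at -1.40 or below. Ccr2 read 88.5, 188, 120 and 135, all below 200. Ccr2 and Ccr6 were also the 2 of 7 receptors higher by the limit after adrenalectomy, against 2.67% of all genes. The Ccr2 log2 ratio there was at least 0.91. Of the 8 receptor ratios at 3 h, 4 were positive and 4 negative.

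**Figure D4:**
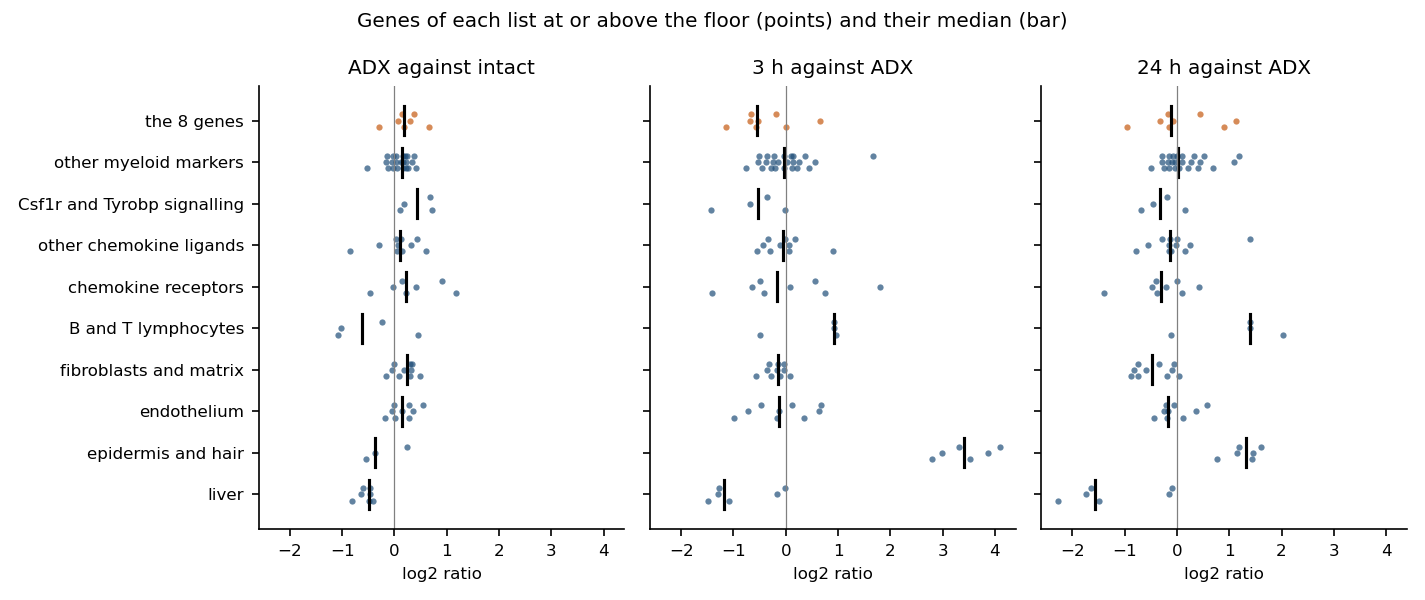
Log2 ratios in the 3 main comparisons of the genes at or above the floor (points) and their median (black bar) for the genes described here (orange) and for lists of related genes and of other cell types (blue). The medians of the other myeloid markers are 0.14, -0.03 and 0.02, beside 0.18, -0.56 and -0.11 for the genes described here. The lymphocyte, epidermis and liver lists lie away from 0 in all 3 comparisons. Their medians, in that order, are -0.63, -0.37 and -0.48 after adrenalectomy, 0.93, 3.42 and -1.18 at 3 h, and 1.40, 1.31 and -1.57 at 24 h.

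The signals most like those of Tyrobp and Cxcl12 across the 4 arrays were sought among 5452 genes at or above the floor on every array, by the root mean square difference of log2 signals centred on each gene's mean. For Tyrobp these were Sprr2b (0.03), Smg5 (0.03) and Phf13 (0.04), and for Cxcl12 they were Tead4 (0.02), Akr1b8 (0.04) and Fn1 (0.04). Fn1, the fibronectin gene, read 811, 984, 596 and 871. With 4 arrays such likeness describes these pools only. Liver plasma protein genes had summed signals of 4072, 2810, 1275 and 946 over 7 genes, highest in intact muscle, and their part in the values above was not tested.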

How the data were processed

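Total RNA from gastrocnemius pooled over 10 mice per group was hybridized to MG-U74Av2 arrays, 1 per group. Each deposited value was the intensity of a probe set on a linear scale, computed by the authors with MAS 5.0, per the submitters' processing notes and the labels. Its other settings are not known here. The deposited instrument files gave the fluidics modules and other array settings.

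Of 12488 probe sets, 66 controls were left out. Each array was scaled so that its trimmed mean, with 2% left out at each end, was 500. Signals below 100 were then set to 100 and log2 ratios taken, with no ratio where both arrays were below. Of the other 12422 probe sets, 10833 carried 1 gene symbol, 396 more than 1 and 1193 no symbol. Among the 10833, 10817 matched the GRCm38.p6 gene table by gene ID, which changed 0 symbols. A gene was represented by its brightest probe set. With 1 array per group no test, standard error or p-value was computed. The error of a ratio was the SD of the difference between 2 probe sets of a gene, divided by the square root of 2. It used the 2 brightest sets at or above the floor on both arrays of a comparison. Related genes were named from 15 lists when they passed 1.5-fold in a main comparison with a brighter signal of at least 200, at most 4 a list. The 6 glucocorticoid-induced genes and the 3 genes nearest in pattern to Tyrobp and to Cxcl12 were also named. Other genes named for their role, such as Csf1, Syk, Cd68, Cxcr4 and Cx3cr1, were chosen after their values were seen. The genes and lists were chosen with earlier results of these data known. The computation of ratios was run on simulated data with changes in bright genes only and less noise than the error given above. It thus could not test calls for dim genes. Python 3.11.15 and pandas 2.3.3 were used.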

Additional observations from a re-analysis of the deposited data

How the results depend on the processing

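Results were recomputed under 9 alternatives, of which 1, keeping only genes above the floor on both arrays, was chosen after seeing the data. Of 16 ratios of the macrophage and chemokine genes past 1.5-fold, recomputed 144 times in all, 120 values stayed past the limit, 15 were under it and none changed sign. The other 9 had no ratio: Fcgr3 in its 4 comparisons with a floor of 200 and with only genes above the floor on both arrays, and Ccl8 at 24 h against intact muscle under the latter. With a floor of 200, the counts of genes at least 1.5-fold higher were 0 after adrenalectomy, 0 at 3 h and 0 at 24 h against the adrenalectomized array, and 0 at 3 h and 1 at 24 h against intact muscle, where 0 were lower at 3 h. The medians with that floor were -0.44 at 3 h and 0.10 at 24 h against intact muscle, and 0.21 from 3 h to 24 h. With a floor of 50, 2 genes were lower at 24 h than after adrenalectomy, and 2 at 3 h and 1 at 24 h were lower than in intact muscle. Scaling to 41 ribosomal protein probe sets moved the median of all genes to 0.16, -0.26 and -0.33 in the main comparisons. The medians of the macrophage and chemokine genes became 0.31, -0.81 and -0.39, with 0 higher and 5 lower at 3 h and 2 lower at 24 h, and 0.12 with 1 lower at 24 h against intact muscle. Median scaling and quantile normalization also gave 1 lower gene at 24 h against intact muscle. Averaging all probe sets of a gene gave medians of -0.28 at 3 h, with 1 gene lower, and of 0.13 at 24 h, which reversed its sign. At 3 h against intact muscle it gave -0.11, with 0 lower. With only genes above the floor on both arrays, 0 genes were higher at 3 h and 1 at 24 h against the adrenalectomized array, and 0 and 1 against intact muscle, with medians of -0.40 and 0.11 there. The floors act on dim signals by construction; the cause of the other changes was not tested. No paired analysis was possible because each group had 1 array.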

Other observations

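Neutrophil and mast cell markers were measured as lists of their own. Of 12 neutrophil markers 6 reached the floor in each main comparison, and 0 passed 1.5-fold in either direction. Between 2.24% and 5.49% of all genes did so in a given direction of these comparisons. Against intact muscle 1 of the 6 was higher by that limit at 3 h, Elane at a log2 ratio of 0.67. At 24 h 2 of the 6 were, Elane at 0.83 and Camp at 0.81. Of all genes 5.7% and 5.95% were higher in these comparisons. Csf3r, the receptor gene for granulocyte colony stimulating factor, read 858 in intact muscle, 858 after adrenalectomy, 818 at 3 h and 977 at 24 h. Elane, the neutrophil elastase gene, read 145, 193, 229.4 and 256. S100a8, a neutrophil calcium-binding protein gene, read 111 in intact muscle, 102 after adrenalectomy, 105 at 3 h and 148 at 24 h. Of 9 mast cell markers 4 reached the floor, and again 0 passed the limit in a main comparison. Tpsb2, a mast cell tryptase gene, read 298, 438, 452 and 423, and Cma1, a chymase gene, read 258, 204, 247 and 233. At 3 h against intact muscle Tpsb2 was higher by the limit, 1 of the 3 with a ratio, at a log2 ratio of 0.60.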
